A study of Homo sapiens with 12 samples.

Results

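The genes described here are 39 members of the Fanconi, homologous recombination and mismatch repair pathways with their checkpoint kinases, taken by symbol from the 27064 genes of the deposited count tables. All 39 had counts in every library, with a minimum of 24 counts in any one of them, and all 39 passed the filter on low counts and were tested in each comparison. Cells were of 2 lines, NCI-H226 (H226) from a mesothelioma and ACHN from a kidney cancer. The submitters describe both as NF2-deficient, so by that description all 4 groups, DMSO controls included, lack an upstream activator of the Hippo kinases, which hold back YAP and TAZ. The groups were H226 with SWTX-143, H226 with DMSO, ACHN with SWTX-143 and ACHN with DMSO, with 3 libraries each. SWTX-143 irreversibly inhibits TEAD factors, through which YAP and TAZ switch on their targets, and was given overnight at 100 nM. Nothing in the labels tells if replicates were separate cultures, so every p-value measures only the spread between these libraries, which may be technical. Each tissue is represented by 1 line, and each line came as its own table, so the line and its handling cannot be told apart.

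Cells meet crosslinked, broken or mismatched DNA mainly while they copy it. In the Fanconi pathway a core complex with the ligase FANCL attaches ubiquitin to the FANCD2 and FANCI clamp at a stalled fork, and nucleases then unhook the crosslink. Homologous recombination repairs the resulting break: the ends are trimmed and the BRCA proteins load a recombinase on the single strand. The strand then invades the sister copy, and the BLM complex dissolves the joint. Mismatch repair corrects copying errors, uracil excision removes a wrong base, and the kinases ATM and ATR halt the cell cycle through CHEK2 and CHEK1. Many of these genes are known as targets of the E2F factors, which switch on transcription before and during DNA synthesis.

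Read depth was alike across libraries, at 9690980 to 11262663 counts. The 4 genes used to check the drug, the YAP and TEAD targets CTGF, CYR61, ANKRD1 and AMOTL2, fell in both lines, CTGF with a log2 fold change of −2.53 ± 0.079 in H226 and −2.39 ± 0.063 in ACHN. The 6 mesothelial markers summed to 3334 to 3582 CPM (counts scaled to library size) with SWTX-143 and 2835 to 2963 CPM with DMSO in H226, against 152 to 160 CPM with SWTX-143 and 183 to 186 CPM with DMSO in ACHN, where WT1 and ITLN1 were at 0. With DMSO all 6 were called higher in H226 than in ACHN, but the log2 differences ran from 0.51 to 13.4. With SWTX-143, 5 of the 6 were called higher in H226, against 19 percent of all tested genes. Only 2 could be tested in ACHN, and both were called lower, against 9.37 percent. The 6 kidney markers summed to 16.3 to 18.3 CPM with SWTX-143 and 8.70 to 10.4 CPM with DMSO in H226, where LHX1 rose (0.88 ± 0.12, edgeR adjusted p = 1.60e-08), PAX8 was not called and the other 4 were too low to test. They summed to 743 to 797 CPM with SWTX-143 and 725 to 755 CPM with DMSO in ACHN, where LHX1 also rose (0.68 ± 0.094, edgeR adjusted p = 1.09e-07). LHX1 was 1 of 2 kidney markers called higher among the 5 tested in ACHN, and the other 3 were not called. Of the 4 markers of immune, endothelial and fibroblast cells, PTPRC was at 0 throughout, and their sum did not pass 15.7 CPM in any library.

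Most of these genes were lower with SWTX-143 in H226. Of the 39 members, 30 fell at an adjusted p under 0.05 (edgeR quasi-likelihood test, Benjamini-Hochberg over 13484 genes), where 40.7 percent of all tested genes were called and 21.6 percent were called lower. At that limit 0 members rose, against 19 percent of all tested genes; 1 member, RAD50, was higher at an unadjusted p under 0.05, and DESeq2 also called 0 higher. In 29 of the 30 the SWTX-143 libraries all lay below the DMSO libraries, the exception being BRCA2, against 20.2 percent of all tested genes. The median log2 fold change was −0.34 over the members, with a range of −1.09 to 0.19, and −0.0011 over all tested genes. The falls were modest in size: 12 members fell with a log2 fold change under −0.5, 12 lay between −0.5 and −0.3, and 6 were above −0.3. Summed over the 39 genes, RNA was 1481 ± 41.2 CPM with SWTX-143, in a range of 1441 to 1523, and 1731 ± 35.0 CPM with DMSO (SD, n = 3 each). Bulk libraries do not tell fewer cells carrying an RNA apart from less RNA per cell.

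Upper-quartile scaling turned the split of all tested genes to 2324 lower and 3283 higher, against 2919 lower and 2567 higher here, and it left 28 members lower and 1 higher. With DESeq2, 20 of the 30 were called lower. Those same 20 kept their call under all 12 alternatives run for H226, while BRCA2, CHEK1, FANCC, FANCD2, FANCG, FANCM, PALB2, RAD51C, RAD54B and RMI2 lost it under at least 1.

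**Figure D1:**
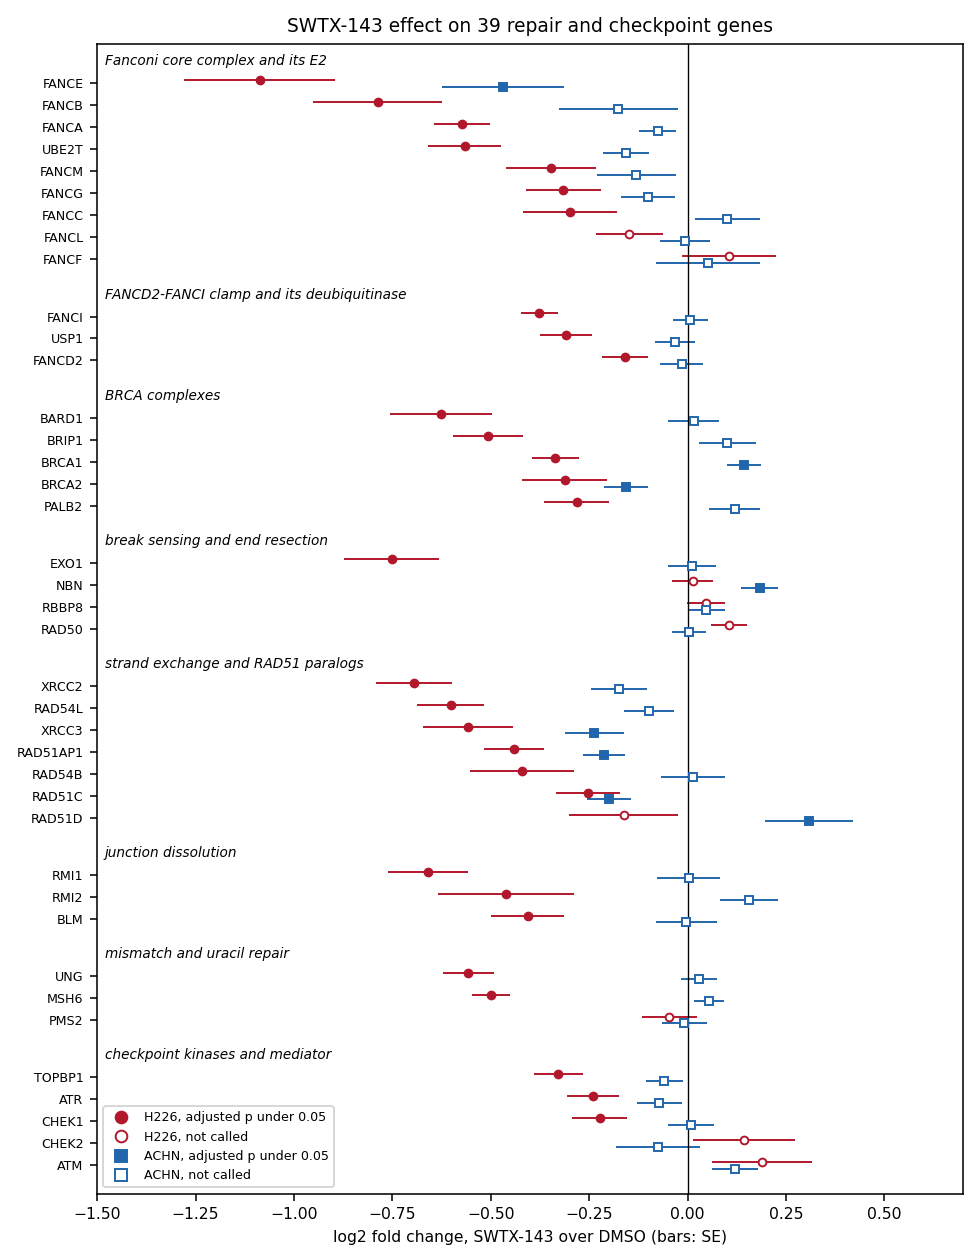
log2 fold change of SWTX-143 over DMSO for each of the 39 genes, grouped by role, with H226 and ACHN as separate points and SE as bars (3 libraries per group). Most H226 points lie left of 0, with a median of −0.34, while the ACHN points scatter around 0, with a median of −0.0032.

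Promoter letters were read because these genes moved together in H226. RefSeq promoter windows (GRCh38.p14, 250 bases before to 50 after a gene's start) were found for 35 of the 39 members; there was no entry for FANCI, NBN, RAD54B and RMI2. The E2F letters searched were TTTCCCGC, TTTGGCGC, TTTCGCGC and TTTGCCGC, on both strands. They stood in windows of 10 of the 35 members (28.6 percent), against 669 of the 10088 genes tested in H226 that had a window (6.63 percent) and 3.99 percent of all genes with a window. By window, the share was 21.2 percent of 52 for the members and 4.82 percent of 14782 for genes tested in H226. The CCAAT letters, bound by NF-Y, stood in 54.3 percent of members, 42.8 percent of tested genes and 39.7 percent of all genes with a window, and by window in 48.1 percent for the members and 34.1 percent for tested genes. The CHR letters (TTTGAA or TTCGAA) of cell-cycle promoters stood in 17.1 percent of members, 15.4 percent of tested genes and 19.5 percent of all genes with a window, and by window in 11.5 percent for the members and 11.8 percent for tested genes. Matches of different letters were counted separately, whether or not they overlapped, and a match is a description, not evidence that a factor binds.

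The E2F letters of the 10 promoters follow, each in a 30-base stretch written in the gene's own direction, with the E2F letters in capitals; a match on the other strand appears as its reverse complement. They are shown so that the sequences of members that fell in H226 can be compared with that of PMS2, which did not pass the test.
EXO1 (chr1:241848197-241848226, plus strand): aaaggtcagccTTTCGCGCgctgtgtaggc
FANCA (chr16:89816801-89816830, minus strand): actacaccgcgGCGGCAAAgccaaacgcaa
FANCC, farther site (chr9:95317863-95317892, minus strand): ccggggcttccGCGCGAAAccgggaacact
FANCC, nearer site (chr9:95317737-95317766, minus strand): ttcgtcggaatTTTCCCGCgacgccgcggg
FANCD2 (chr3:10026424-10026453, plus strand): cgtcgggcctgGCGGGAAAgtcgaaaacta
MSH6 (chr2:47783137-47783166, plus strand): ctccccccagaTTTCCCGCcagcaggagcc
PMS2 (chr7:6009131-6009160, minus strand): cgggaagtattTTTGCCGCcccgcccggaa
RMI1 (chr9:83980762-83980791, plus strand): ggcgcgagcgcGCGGCAAAtcgggcgggaa
TOPBP1 (chr3:133661930-133661959, minus strand): ccgcgcggttgGCGCGAAAgtcggttcccg
UNG (chr12:109098098-109098127, plus strand): gagggaggtttTTTGCCGCgaaaagaccac
XRCC2 (chr7:152676102-152676131, minus strand): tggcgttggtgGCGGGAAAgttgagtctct

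Of the 10 members with E2F letters, 9 fell in H226, with a median log2 fold change of −0.53, and of the 25 with a window but without the letters 18 fell, with a median of −0.31. Over all tested genes with a window, 31.7 percent of 669 with the letters and 21.7 percent of 9419 without them were called lower in H226. In ACHN the 5 members called lower were among the 25 without the letters, and the members' medians were −0.0029 with and −0.032 without them. Over all tested genes with a window, 8.93 percent of 661 with the letters and 9.70 percent of 9415 without them were called lower in ACHN. EXO1, MSH6 and XRCC2 carried the letters just after the start, at bases 5 to 12, 4 to 11 and 22 to 29, while those of UNG lay at bases −63 to −56.

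Longer stretches upstream of 4 genes are shown for contrast: MSH6 and UNG, which fell in H226 with p-values among the smallest 3 of the members; BRCA1, which fell in H226 and rose in ACHN; and PMS2, which was called in neither line. Capitals mark E2F, CHR and CCAAT letters on either strand. Where a gene had several windows, the one with the most E2F matches was taken. Windows with E2F letters were 1 of 4 for MSH6, 1 of 2 for UNG, 0 of 2 for BRCA1 and 2 of 2 for PMS2. Annotated coding transcripts starting within 50 bases of the start used numbered 0 for UNG, 1 for MSH6, 15 for BRCA1 and 4 for PMS2.
MSH6 (chr2:47782895-47783081, plus strand): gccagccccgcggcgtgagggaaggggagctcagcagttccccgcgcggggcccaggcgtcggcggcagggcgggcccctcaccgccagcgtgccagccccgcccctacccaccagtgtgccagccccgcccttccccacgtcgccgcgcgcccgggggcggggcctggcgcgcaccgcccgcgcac
UNG (chr12:109097922-109098117, plus strand): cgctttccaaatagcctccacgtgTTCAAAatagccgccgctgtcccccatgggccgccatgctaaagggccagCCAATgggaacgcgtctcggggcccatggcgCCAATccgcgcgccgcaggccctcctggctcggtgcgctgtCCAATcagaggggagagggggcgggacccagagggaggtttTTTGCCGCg
BRCA1 (chr17:43125484-43125614, minus strand): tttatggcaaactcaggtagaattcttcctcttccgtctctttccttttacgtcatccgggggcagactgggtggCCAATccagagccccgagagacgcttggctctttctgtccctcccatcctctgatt
PMS2 (chr7:6009126-6009244, minus strand): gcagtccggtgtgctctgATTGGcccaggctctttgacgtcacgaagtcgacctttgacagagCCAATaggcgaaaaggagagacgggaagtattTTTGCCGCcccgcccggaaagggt
The MSH6 stretch, which ends before the 30-base site shown above, holds none of the letters searched. The UNG and PMS2 stretches hold the same 8 E2F letters, TTTGCCGC, together with CCAAT letters; UNG fell in H226 and PMS2 did not pass the test. The BRCA1 stretch holds CCAAT letters, and the searched E2F letters are not in its windows.

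The Fanconi core complex was lower in H226 with SWTX-143 in 7 of its 9 measured genes, counting the E2 enzyme UBE2T (median log2 fold change −0.35). For this and each further role, the share to set the count against is the 21.6 percent of all tested genes called lower. FANCA, the core subunit most often mutated in Fanconi anaemia, read 31.4, 30.0 and 35.2 CPM with SWTX-143 and 50.7, 43.7 and 48.6 CPM with DMSO. The groups did not overlap, and the log2 fold change was −0.57 ± 0.072, adjusted p = 2.47e-09. FANCE, which links the core to FANCD2, changed most of the 39 genes but is a low RNA, at 2.37, 2.98 and 2.72 CPM with SWTX-143 against 6.33, 4.86 and 5.95 CPM with DMSO (−1.09 ± 0.19, adjusted p = 5.28e-06). UBE2T, which passes ubiquitin to the clamp, read 16.998, 14.2 and 16.4 CPM with SWTX-143 and 22.9, 24.0 and 23.1 CPM with DMSO (−0.57 ± 0.093, adjusted p = 1.13e-06). The subunits FANCB (−0.79 ± 0.16), FANCG (−0.32 ± 0.10) and FANCC (−0.30 ± 0.12) and the fork translocase FANCM (−0.35 ± 0.11) also fell. The ligase FANCL itself did not pass the test, at 23.2 ± 1.26 CPM with SWTX-143 and 25.5 ± 2.79 CPM with DMSO (−0.15 ± 0.085, adjusted p = 0.165), nor did the adaptor FANCF (0.11 ± 0.12, adjusted p = 0.515). Calls of 3 of the core-complex genes were lost under some alternatives. DESeq2, with all libraries kept, did not call FANCC (adjusted p = 0.18), FANCG (0.0622) or FANCM (0.0953). In edgeR, FANCC was also lost under upper-quartile scaling (adjusted p = 0.0873) and library size alone (0.077). FANCC missed the limit without H226 SWTX-143 replicate 1 (adjusted p = 0.0561) or 3 (0.16), or DMSO replicate 1 (0.0638) or 3 (0.166), FANCG without SWTX-143 replicate 3 (0.052), and FANCM without SWTX-143 replicate 2 (0.0671). Exons of FANCA overlap ZNF276, which also fell in H226 (−0.24 ± 0.07, edgeR adjusted p = 0.0078), and those of FANCL overlap VRK2; the strand setting of the counts is not given, so reads there cannot be assigned to a strand.

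The clamp and its deubiquitinase were lower as well, in 3 of 3 genes. FANCI, which pairs with FANCD2, read 137, 129 and 138 CPM with SWTX-143 and 179.5, 176 and 164 CPM with DMSO (−0.38 ± 0.047, adjusted p = 1.87e-09). USP1, which removes the ubiquitin again, read 85.3, 80.8 and 66.2 CPM with SWTX-143 and 98.1, 93.1 and 94.4 CPM with DMSO (−0.31 ± 0.066, adjusted p = 0.000544). Both genes had all SWTX-143 libraries below all DMSO libraries, and the SWTX-143 libraries of USP1 were spread more widely, replicate 3 being the lowest. FANCD2 fell least of the 30, at 60.7, 57.0 and 57.1 CPM with SWTX-143 and 62.1, 68.4 and 63.1 CPM with DMSO (−0.16 ± 0.058, adjusted p = 0.0251). Its call was lost without SWTX-143 replicate 2 (adjusted p = 0.0925) or 3 (0.0572) or DMSO replicate 2 (0.185), and under upper-quartile scaling, library size alone and DESeq2. FANCI shares exon bases with POLG, a polymerase gene on the other strand that also fell (−0.25 ± 0.05, edgeR adjusted p = 7.85e-05).

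All 5 BRCA-complex genes fell in H226, with a median log2 fold change of −0.34. BRCA1, the ubiquitin ligase that steers breaks toward recombination, read 55.2, 50.1 and 53.3 CPM with SWTX-143 and 65.3, 64.5 and 69.3 CPM with DMSO (−0.34 ± 0.059, adjusted p = 4.62e-06). Its obligate partner BARD1 read 6.62, 7.16 and 8.15 CPM with SWTX-143 and 11.05, 11.3 and 11.3 CPM with DMSO (−0.63 ± 0.13, adjusted p = 7.39e-05), and the helicase BRIP1 read 18.8, 16.4 and 17.5 CPM with SWTX-143 and 25.6, 25.3 and 23.2 CPM with DMSO (−0.51 ± 0.089, adjusted p = 4.35e-06). In each of these 3 genes the groups were apart. PALB2, the bridge between BRCA1 and BRCA2, fell by less (−0.28 ± 0.083, adjusted p = 0.00455), and DESeq2 did not call it (adjusted p = 0.0557). BRCA2, which loads the recombinase, read 15.2, 13.2 and 17.6 CPM with SWTX-143 and 20.6, 16.1 and 20.3 CPM with DMSO, so that 1 treated library lay above 1 DMSO library (−0.31 ± 0.11, adjusted p = 0.019). The BRCA2 call did not hold without SWTX-143 replicate 1 (adjusted p = 0.0644) or 2 (0.154), or without DMSO replicate 1 (0.113) or 3 (0.0886).

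In break sensing and end resection 1 of 4 genes was lower, with a median log2 fold change of 0.030. That share, 25 percent, is near the 21.6 percent of all tested genes called lower. EXO1, an exonuclease that serves both long resection and mismatch removal, read 8.60, 7.81 and 7.50 CPM with SWTX-143 and 12.9, 13.6 and 13.4 CPM with DMSO, a 1.68-fold fall (−0.75 ± 0.12, adjusted p = 8.31e-07). The groups were well separated. RBBP8 (CtIP), which starts resection, averaged 151 ± 8.87 CPM with SWTX-143 and 145 ± 6.34 CPM with DMSO (0.048 ± 0.048, adjusted p = 0.453), and NBN of the break-sensing complex 105 ± 3.33 CPM with SWTX-143 and 103 ± 6.36 CPM with DMSO (0.013 ± 0.052, adjusted p = 0.869). RAD50, the other measured subunit of that complex among the members, read 165, 158 and 169 CPM with SWTX-143 and 155, 150.0 and 148 CPM with DMSO. Its SWTX-143 libraries were all above its DMSO libraries, and the difference missed the limit (0.11 ± 0.046, adjusted p = 0.0585). RAD50 was called higher under RLE, upper-quartile and library-size scaling (log2 fold changes of 0.11, 0.16 and 0.15), with the replicate number as a block, and without SWTX-143 replicate 2 (0.14, adjusted p = 0.036). Its direction held under each alternative, at 0.084 to 0.16. MRE11A, the remaining subunit of that complex and not a member, fell in H226 (−0.15 ± 0.063, edgeR adjusted p = 0.0472). In ACHN MRE11A was not called (0.15 ± 0.064, edgeR adjusted p = 0.0906), and the lines differed (−0.31 ± 0.090, edgeR adjusted p = 0.00886).

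Strand exchange was lower in 6 of 7 genes, with a median log2 fold change of −0.44. XRCC2, a recombinase paralog, read 15.4, 12.7 and 16.96 CPM with SWTX-143 and 24.1, 23.1 and 25.4 CPM with DMSO, 1.62-fold lower (−0.69 ± 0.10, adjusted p = 2.88e-08). The motor protein RAD54L, which remodels the invading strand, read 20.3, 19.7 and 24.4 CPM with SWTX-143 and 29.6, 33.8 and 33.8 CPM with DMSO (−0.60 ± 0.085, adjusted p = 5.15e-08). RAD51AP1, a cofactor of the recombinase, read 25.9, 29.7 and 27.6 CPM with SWTX-143 and 37.2, 41.1 and 33.6 CPM with DMSO (−0.44 ± 0.077, adjusted p = 4.17e-06). In all of them the SWTX-143 libraries were the lower ones without overlap. The paralogs XRCC3 (−0.56 ± 0.11) and RAD51C (−0.25 ± 0.082) and the motor protein RAD54B (−0.42 ± 0.13) also fell, while the paralog RAD51D averaged 7.35 ± 0.401 CPM with SWTX-143 and 8.16 ± 0.555 CPM with DMSO and was not called (−0.16 ± 0.14, adjusted p = 0.363). RAD51C lost its call without DMSO replicate 2 (adjusted p = 0.0676), and RAD54B without DMSO replicate 2 (0.106) or SWTX-143 replicate 1 (0.0667). XRCC3 shares 5756 exon bases with KLC1, a kinesin gene at 64.6 CPM with DMSO that fell too (−0.17 ± 0.06, edgeR adjusted p = 0.0169). RAD54L shares exon bases with LRRC41, at 117 CPM with DMSO and not called (−0.037 ± 0.05, edgeR adjusted p = 0.593). On the same strand, RAD54B shares 3139 exon bases with FSBP and RAD51D shares 905 with RAD51L3-RFFL. Both partners were at 0 CPM with DMSO in H226 and ACHN, and how reads in shared bases were counted is not given.

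The 3 genes of joint dissolution all fell (median log2 fold change −0.46). RMI1, the scaffold of the BLM complex, read 12.5, 12.7 and 11.996 CPM with SWTX-143 and 19.2, 21.5 and 17.5 CPM with DMSO (−0.66 ± 0.10, adjusted p = 4.03e-07). The helicase BLM read 20.6, 16.8 and 17.2 CPM with SWTX-143 and 21.5, 25.5 and 24.9 CPM with DMSO (−0.41 ± 0.092, adjusted p = 0.000285). RMI2, the smaller scaffold subunit, was low in H226, at 4.35, 3.91 and 4.03 CPM with SWTX-143 and 5.95, 5.14 and 5.73 CPM with DMSO (−0.46 ± 0.17, adjusted p = 0.0266). The groups were apart for all 3, but the RMI2 call was lost without SWTX-143 replicate 2 (adjusted p = 0.0824) or 3 (0.0553), or without DMSO replicate 1 (0.1) or 3 (0.0681).

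Mismatch and uracil repair held the member with the smallest p-value. MSH6, the subunit that recognises single mismatched bases, read 106, 102 and 97.4 CPM with SWTX-143 and 146, 145 and 137 CPM with DMSO, 1.41-fold lower (−0.50 ± 0.049, adjusted p = 1.21e-12). UNG, the glycosylase that cuts uracil out of DNA, read 44.6, 38.8 and 39.1 CPM with SWTX-143 and 62.1, 60.8 and 55.5 CPM with DMSO, 1.47-fold lower (−0.56 ± 0.065, adjusted p = 2.30e-10). Neither gene had overlapping groups. PMS2, the nuclease subunit that acts after mismatch recognition, read 33.2, 35.0 and 36.6 CPM with SWTX-143 and 37.5, 35.1 and 34.8 CPM with DMSO, and its groups overlapped (−0.046 ± 0.071, adjusted p = 0.634). The sign of the PMS2 value depended on the scaling, with a range of −0.079 to 0.0031 over the alternatives. PMS2 has near-identical copies, of which PMS2P1 had 15.7 CPM and PMS2CL 10.1 CPM in H226 with DMSO, so its count is uncertain. MSH6 shares exon bases with FBXO11 on the other strand, which went the other way (0.19 ± 0.06, edgeR adjusted p = 0.00578).

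**Figure D2:**
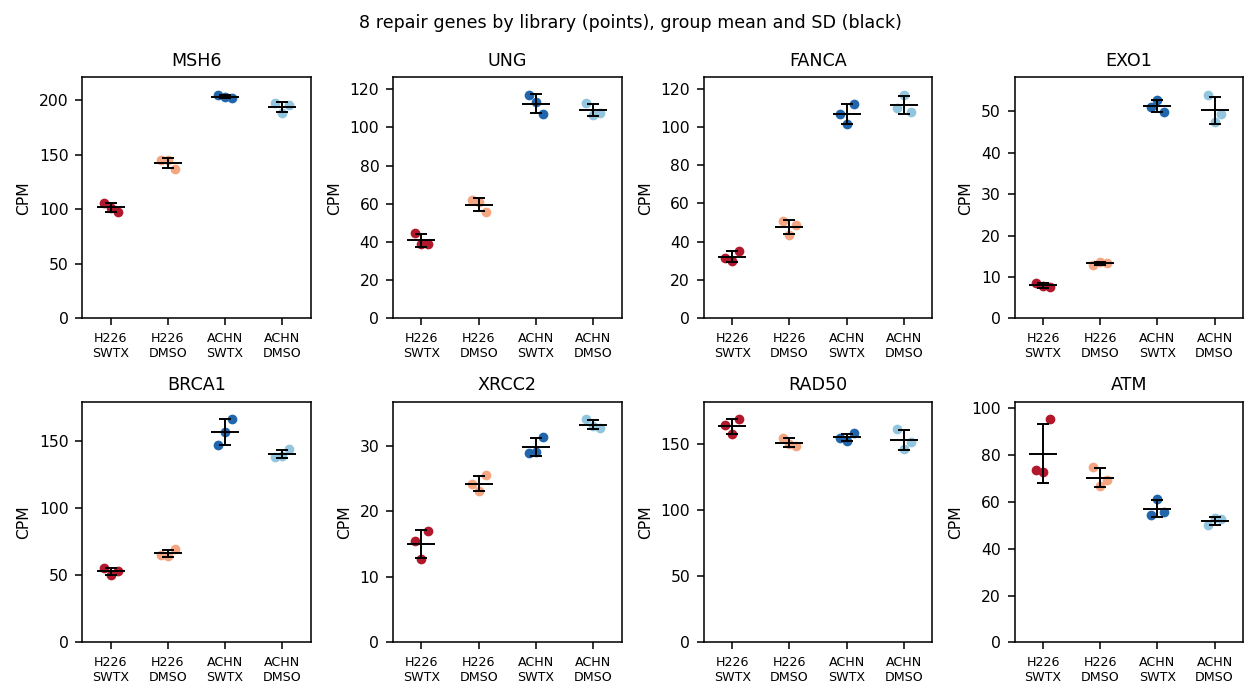
CPM of 8 repair genes in each library (points), with group mean and SD in black; the 8 were chosen after their values were seen. MSH6, UNG, FANCA, EXO1, BRCA1 and XRCC2 are lower with SWTX-143 in H226 without overlap of the groups, whereas RAD50 and ATM are not.

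Among the checkpoint genes, 3 of 5 fell in H226. TOPBP1, which activates ATR, read 48.6, 49.2 and 42.8 CPM with SWTX-143 and 55.5, 60.3 and 59.8 CPM with DMSO (−0.33 ± 0.063, adjusted p = 1.93e-05), and ATR, the kinase of stalled forks, read 39.5, 34.9 and 38.99 CPM with SWTX-143 and 45.0, 43.6 and 44.4 CPM with DMSO (−0.24 ± 0.067, adjusted p = 0.00296). CHEK1, the effector of ATR, read 39.1, 34.5 and 35.5 CPM with SWTX-143 and 39.8, 41.6 and 45.5 CPM with DMSO (−0.22 ± 0.070, adjusted p = 0.00776). The CHEK1 groups were only just apart, and its call was lost without SWTX-143 replicate 2 (adjusted p = 0.06) or DMSO replicate 3 (0.0875). The kinase of DNA breaks, ATM, read 73.7, 72.9 and 95.2 CPM with SWTX-143 and 74.9, 66.7 and 69.5 CPM with DMSO (0.19 ± 0.13, adjusted p = 0.307). SWTX-143 replicate 3 was the high ATM library, and the other two lay within the DMSO range. Without a filter on low counts ATM was called higher (0.18, edgeR adjusted p = 0.00655). CHEK2, the effector of ATM, averaged 10.1 ± 0.539 CPM with SWTX-143 and 9.01 ± 1.26 CPM with DMSO and was not called (0.14 ± 0.13, adjusted p = 0.394). CHEK1 shares exon bases with STT3A, at 271 CPM with DMSO and not called, and ATM with NPAT, which fell (−0.28 ± 0.09, edgeR adjusted p = 0.00725).

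Few of the genes moved in ACHN. There 5 of the 39 members (12.8 percent) fell, against 9.37 percent of all tested genes, and 3 (7.69 percent) rose, against 8.43 percent; 17.8 percent of all tested genes were called. Both shares are near the background. The 8 calls had groups that did not overlap, against 8.81 percent of all tested genes that were lower and 8.1 percent that were higher in that way. The members' median log2 fold change was −0.0032, and their summed RNA was 2357 ± 33.0 CPM with SWTX-143 and 2336 ± 41.3 CPM with DMSO. The split of all tested genes was 1264 lower and 1137 higher, and upper-quartile scaling turned it to 1028 lower and 1450 higher, library size alone to 977 lower and 1537 higher, each with 4 members lower and 3 higher.

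The 5 that fell in ACHN had fallen in H226 too. RAD51AP1 read 67.3, 68.4 and 76.1 CPM with SWTX-143 and 80.9, 79.8 and 82.0 CPM with DMSO in ACHN (−0.21 ± 0.053, adjusted p = 0.00276). RAD51C read 56.1, 58.7 and 57.9 CPM with SWTX-143 and 66.2, 68.3 and 61.6 CPM with DMSO (−0.20 ± 0.056, adjusted p = 0.00775), and BRCA2 53.02, 57.2 and 56.6 CPM with SWTX-143 and 61.4, 62.2 and 60.3 CPM with DMSO (−0.16 ± 0.056, adjusted p = 0.0422). XRCC3 (−0.24 ± 0.075, adjusted p = 0.0202) and FANCE (−0.47 ± 0.16, adjusted p = 0.0271) were the other two. Of the 5, RAD51AP1 alone kept its call under all 12 alternatives run for ACHN. RAD51C was lost without SWTX-143 replicate 1 (adjusted p = 0.052) or DMSO replicate 2 (0.0819), and XRCC3 without SWTX-143 replicate 2 (0.0858) or DMSO replicate 3 (0.188). FANCE was lost without SWTX-143 replicate 2 (0.0551) or 3 (0.135) or DMSO replicate 1 (0.168), and BRCA2 without SWTX-143 replicate 1 (0.221) or any 1 of the 3 DMSO libraries (0.0758 to 0.148).

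The 3 that rose in ACHN were NBN, BRCA1 and RAD51D. NBN read 117, 122 and 119 CPM with SWTX-143 and 111, 100.0 and 101 CPM with DMSO (0.18 ± 0.046, adjusted p = 0.00294), and kept its call under all 12 alternatives. BRCA1 read 147, 157 and 166 CPM with SWTX-143 and 138, 139 and 144 CPM with DMSO (0.14 ± 0.044, adjusted p = 0.0156), opposite in sign to H226. Its rise was lost without SWTX-143 replicate 3 (adjusted p = 0.159) or DMSO replicate 2 (0.0504) and with DESeq2 (0.0649). RAD51D averaged 13.1 ± 0.483 CPM with SWTX-143 and 10.5 ± 1.23 CPM with DMSO (0.31 ± 0.11, adjusted p = 0.0475), and did not pass without any 1 of the SWTX-143 libraries (0.0531 to 0.141) or without DMSO replicate 2 (0.16) or 3 (0.212). Leaving out a library gave 3 or 4 members lower and 1 to 4 higher: 3 lower without SWTX-143 replicate 1, DMSO replicate 1 or DMSO replicate 3, and 1 higher without SWTX-143 replicate 3 or DMSO replicate 2. UBE2T, not called here (−0.16 ± 0.058, adjusted p = 0.0542), was called lower without SWTX-143 replicate 2 (0.0288) or DMSO replicate 2 (0.0312), and RMI2 was called higher without DMSO replicate 1 (0.0468).

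**Figure D3:**
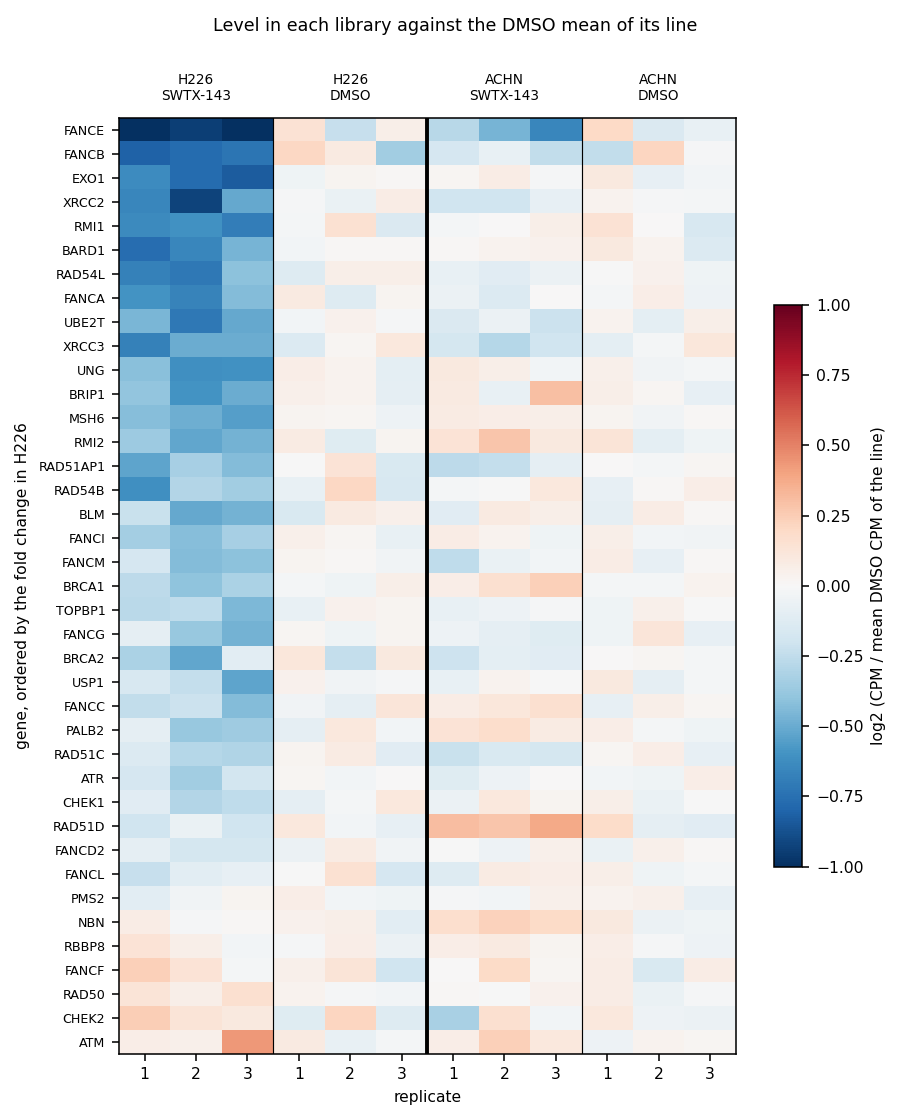
Each library's level of the 39 genes as log2 of its CPM over the mean DMSO CPM of its line. In H226 the 3 SWTX-143 libraries are below the DMSO mean for most rows, while the ACHN libraries of both groups stay near it except for a few genes such as FANCE and RAD51D.

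The difference between the lines was tested directly, with all 12 libraries fitted together (14664 genes), as the effect in H226 minus that in ACHN. At an adjusted p under 0.05 it was called negative, meaning a lower log2 fold change in H226, for 20 of the 39 members. Of all tested genes 9.7 percent were called negative, and 15.6 percent in either direction. The difference was called positive for 0 members, against 5.89 percent of all tested genes. That count was also 0 at an unadjusted p under 0.05 and in DESeq2. The median difference was −0.39 over the members and −0.011 over all tested genes. The smallest adjusted p-values belonged to MSH6 (−0.56 ± 0.063, adjusted p = 3.10e-11), UNG (−0.59 ± 0.081, adjusted p = 1.18e-08) and BRCA1 (−0.48 ± 0.075, adjusted p = 3.91e-07), and EXO1 had the most negative value (−0.77 ± 0.13, adjusted p = 4.55e-06). MSH6 shows the contrast in the libraries: against the H226 values above, ACHN read 205, 203 and 202 CPM with SWTX-143 and 197, 189 and 195 CPM with DMSO. UNG read 117, 113 and 107 CPM with SWTX-143 and 113, 107 and 108 CPM with DMSO in ACHN, and EXO1 read 51.0, 52.8 and 49.9 CPM with SWTX-143 and 53.9, 47.5 and 49.4 CPM with DMSO. For UNG and EXO1 these ACHN groups overlapped, and for MSH6 the SWTX-143 libraries lay just above the DMSO ones without passing the test (0.054 ± 0.039, adjusted p = 0.381).

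By role, the counts called lower for the difference stand against 9.7 percent of all tested genes. They were 3 of 3 joint dissolution genes, 4 of 5 BRCA-complex genes (all but BRCA2) and 2 of 3 mismatch and uracil repair genes. Called too were 2 of 3 clamp genes, 4 of 9 core-complex genes and 3 of 7 strand exchange genes. A single gene was called among the 4 of break sensing (EXO1) and among the 5 of the checkpoint (TOPBP1). Of the 24 members that fell in H226 and were not called in ACHN, 5 did not pass this test, namely ATR, CHEK1, FANCD2, FANCG and FANCM, and they are not shown to differ between lines. The 5 that fell in both lines were not called different: BRCA2 (−0.16 ± 0.12, adjusted p = 0.409), FANCE (−0.62 ± 0.25, adjusted p = 0.0819), RAD51AP1 (−0.24 ± 0.093, adjusted p = 0.0741), RAD51C (−0.061 ± 0.10, adjusted p = 0.769) and XRCC3 (−0.33 ± 0.13, adjusted p = 0.0901). Upper-quartile scaling left 16 members with a called difference, and turned the split of all genes to 1045 lower and 1159 higher, against 1423 lower and 863 higher here. Without H226 DMSO replicate 2, 13 members and 832 of all genes were called lower; without each of the other libraries 14 to 21 members were.

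The lines also differed before treatment. With DMSO, 27 of the 39 members were lower in H226 than in ACHN and 4 were higher, where 84.4 percent of all tested genes were called, 42.2 percent lower and 42.2 percent higher. The members' median log2 difference, H226 minus ACHN, was −0.46, and that of all tested genes 0.0044. RMI2 had the greatest gap, at 5.95, 5.14 and 5.73 CPM in H226 and 32.3, 27.6 and 28.6 CPM in ACHN (−2.39 ± 0.11, adjusted p = 1.53e-34). BARD1 read 11.05, 11.3 and 11.3 CPM in H226 and 45.5, 43.7 and 38.7 CPM in ACHN (−1.92 ± 0.087, adjusted p = 7.03e-35), and EXO1 12.9, 13.6 and 13.4 CPM in H226 and 53.9, 47.5 and 49.4 CPM in ACHN (−1.91 ± 0.081, adjusted p = 4.11e-37). All 5 BRCA-complex genes and all 7 strand exchange genes were lower in H226. The 4 that were higher there were ATM (0.44 ± 0.090), FANCF (0.46 ± 0.13), FANCI (0.41 ± 0.046) and RBBP8 (0.54 ± 0.049), each with groups that did not overlap; 41.2 percent of all tested genes were higher, and 41.2 percent lower, in that way. The other 8 members, BLM, FANCB, FANCD2, FANCE, FANCM, NBN, RAD50 and USP1, were not called. The call of RAD51D (−0.36 ± 0.13, adjusted p = 0.00742) was lost without ACHN DMSO replicate 1 (adjusted p = 0.0795). Scaling by library size alone moved the median of all genes by −0.16 and gave 34 members lower.

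**Figure D4:**
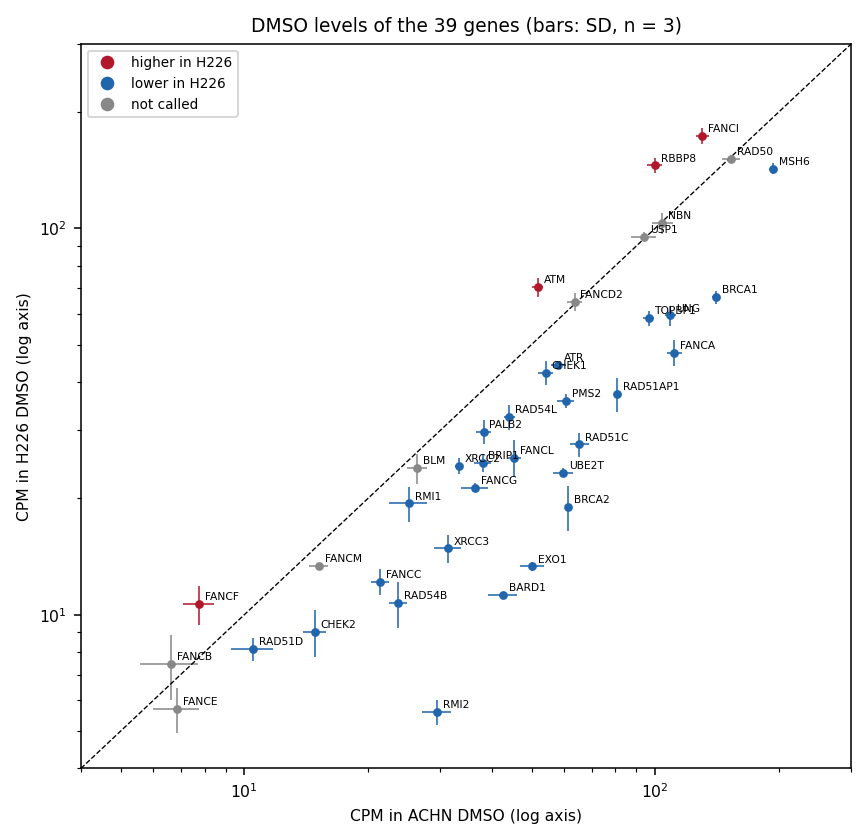
Mean CPM of the 39 genes with DMSO in H226 (vertical) against ACHN (horizontal) on log axes, with SD bars (n = 3 each) and a line of equal level. RMI2, BARD1, EXO1 and BRCA2 lie far below the line, and ATM, RBBP8, FANCI and FANCF lie above it.

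The other genes of these pathways were listed by function. Of 44 other Fanconi and recombination genes, 17 fell and 1 rose in H226 (median log2 fold change −0.12), among them RFWD3, a ligase that clears repair proteins from DNA (−0.56 ± 0.055, adjusted p = 1.51e-12), MMS22L of the fork complex (−0.61 ± 0.081), the helicase MCM8 (−0.64 ± 0.093) and TOP3A, the topoisomerase partner of BLM (−0.54 ± 0.080). Of 20 other mismatch and base excision genes, 9 fell (median −0.15), led by the flap nuclease FEN1 (−0.57 ± 0.055, adjusted p = 9.40e-13), the sliding clamp PCNA (−0.51 ± 0.058) and the glycosylases NEIL3 (−0.82 ± 0.10) and TDG (−0.46 ± 0.059). Of 17 other checkpoint genes, 10 fell and 3 rose (median −0.27), including the phosphatase CDC25A (−1.32 ± 0.12, adjusted p = 3.97e-14), the ATR mediator CLSPN (−0.65 ± 0.060), its fork partner TIPIN (−1.05 ± 0.11) and the histone H2AFX (−0.36 ± 0.049). The shares to set these against are the 21.6 percent lower and 19 percent higher of all tested genes.

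Further lists hold repair routes that do not need a sister copy. Of 11 end joining genes, 4 fell and 1 rose (median −0.086): the polymerase POLQ (−0.49 ± 0.10, adjusted p = 5.03e-05), the Ku subunits XRCC5 (−0.18 ± 0.044) and XRCC6 (−0.15 ± 0.044), and the scaffold PAXX, listed as C9orf142 (−0.34 ± 0.092). Of 21 nucleotide excision genes, 9 fell and 2 rose (median −0.12). The damage sensor subunit RAD23B (−0.39 ± 0.040, adjusted p = 7.92e-12) and the helicase ERCC2 (−0.60 ± 0.072) fell, and the damage sensor DDB2 rose (0.33 ± 0.054, adjusted p = 1.81e-06). Whether these lists differ from the members was not tested.

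In ACHN the same lists gave 0 lower and 1 higher of 44 (edgeR; 2 lower and 5 higher at an unadjusted p under 0.05), 2 lower of 20, 2 lower of 17, 2 lower and 1 higher of 11, and 4 lower of 21, in the order above, against 9.37 percent lower and 8.43 percent higher of all tested genes. BRCC3, a deubiquitinase of the BRCA1 complex, rose (0.18 ± 0.061, adjusted p = 0.0344), as did the ligase cofactor XRCC4 (0.28 ± 0.084, adjusted p = 0.013). TDG (−0.20 ± 0.066), PMS1 (−0.18 ± 0.065), H2AFX (−0.14 ± 0.042), CDC25A (−0.25 ± 0.077), the end joining kinase PRKDC (−0.28 ± 0.039) and POLQ (−0.19 ± 0.066) fell. So did XPC (−0.34 ± 0.044, adjusted p = 2.37e-08), ERCC2 (−0.29 ± 0.072), CCNH (−0.25 ± 0.080) and ERCC3 (−0.16 ± 0.053) of nucleotide excision. XPC, the sensor that opens nucleotide excision, read 101, 100.4 and 101 CPM with SWTX-143 and 86.1, 86.7 and 90.7 CPM with DMSO in H226, where it rose (0.19 ± 0.051, adjusted p = 0.00185), and the lines differed (0.52 ± 0.068, adjusted p = 3.14e-09). The difference between lines was called lower for 16 of 44, 7 of 20, 7 of 17, 1 of 11 and 3 of 21 genes, against 9.7 percent of all tested genes. The end joining share, 9.09 percent, is near that background. In the same order, the difference was called higher for 0, 0, 1, 0 and 1 genes, against 5.89 percent of all tested genes.

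E2F and DREAM factors control transcription of genes for DNA synthesis and division. Of 19 measured, 10 fell, 2 rose and 7 were not called in H226 (median −0.20), against 21.6 percent lower and 19 percent higher of all tested genes. In ACHN 1 fell, 2 rose and 16 were not called, against 9.37 percent lower and 8.43 percent higher. E2F1, an activator, read 14.3, 16.3 and 20.8 CPM with SWTX-143 and 30.8, 30.7 and 29.7 CPM with DMSO in H226 (−0.83 ± 0.09, adjusted p = 2.35e-09). E2F7 (−0.81 ± 0.10) and E2F4 (−0.36 ± 0.053), which act mainly as repressors, and the activator MYBL2 (−0.46 ± 0.051) also fell. In ACHN, the E2F partner TFDP2 (0.31 ± 0.067, adjusted p = 0.000405) and the pocket protein RBL2 (0.13 ± 0.044) rose and E2F4 fell (−0.14 ± 0.043). The difference between lines was called lower for 7 of the 19, against 9.7 percent of all tested genes, E2F1 among them (−0.74 ± 0.13, adjusted p = 7.61e-06). The part of these factors, and of the mesothelial and kidney markers that were higher with SWTX-143 in H226, in the members' response was not tested.

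**Figure D5:**
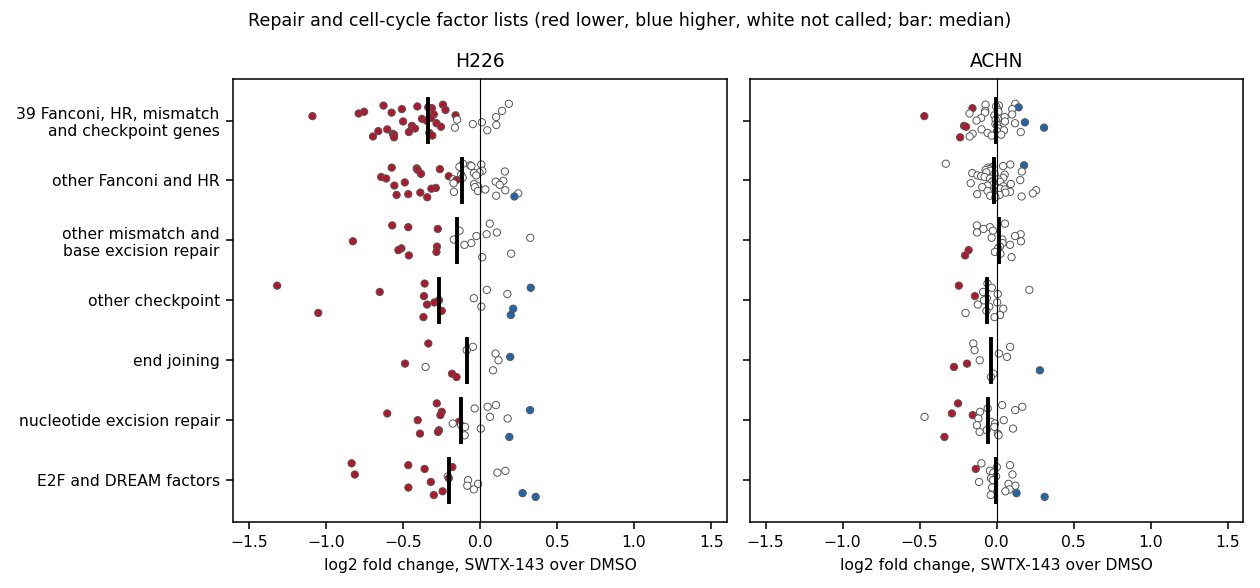
log2 fold change of SWTX-143 over DMSO for every gene of the members and of 6 other lists, in H226 and ACHN, with called genes coloured and the median of each list as a bar. The members' bar lies at −0.34 in H226 and at −0.0032 in ACHN, and the other lists have H226 medians of −0.27 to −0.086.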

How the data were processed

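Poly(A) RNA was read as paired 100-base reads on a BGISEQ-500, per the labels. The authors deposited raw read counts per gene symbol, 1 table per line. The submitters' processing notes name STAR 2.6.1d, cutadapt and FastQC, and hg19 (GRCh37) as the build. The counting program, strand setting, handling of multi-mapping reads and annotation were not given in the sources used here. Total counts were 9690980 to 11262663, joint TMM factors 0.933 to 1.066, and no 2 replicates were copies (chi-square per degree of freedom 1.36 to 3.42 over 12 pairs).

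edgeR 4.0.16 in R 4.3.3 (filterByExpr, TMM, robust quasi-likelihood F test, Benjamini-Hochberg over all tested genes, limit 0.05) compared SWTX-143 with DMSO within each line. A joint fit of the 12 libraries gave the difference between lines and the DMSO levels. CPM used TMM effective library sizes of that joint fit, and SE is the fold change over the square root of F. The script was tested on simulated data. Alternatives were RLE, upper-quartile and library-size scaling, no filter, DESeq2 1.42.0, the replicate number as a block, and each library left out in turn.

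The members and lists were chosen with earlier results of these data known, so no list was tested as a whole. All 39 members were described; from each other list, up to 4 genes per line with the smallest p were named (1 is not reported here), and all 4 drug check genes were tested. XPC in H226, the E2F1 and XPC differences and the MRE11A values were chosen for report after they were seen. Promoters were printed for members with the smallest p in H226 and for the difference, and for the uncalled member with the largest p. The printed 30-base sites of the other members were added after the matches were seen. Exon overlaps came from GENCODE 29 (GRCh38).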

Additional observations from a re-analysis of the deposited data

Results flagged for a closer look

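For 20 of the 39 genes the response to SWTX-143 differed between the lines in the test of the difference itself (H226 effect minus ACHN effect, edgeR adjusted p under 0.05). The log2 differences in the BRCA complexes were −0.48 for BRCA1, −0.65 for BARD1, −0.61 for BRIP1 and −0.41 for PALB2. In mismatch and uracil repair they were −0.56 for MSH6 and −0.59 for UNG, in resection −0.77 for EXO1, and at the checkpoint −0.28 for TOPBP1. Joint dissolution gave −0.67 for RMI1, −0.62 for RMI2 and −0.41 for BLM. Strand exchange gave −0.51 for RAD54L, −0.53 for XRCC2 and −0.44 for RAD54B. In the Fanconi genes they were −0.50 for FANCA, −0.62 for FANCB, −0.41 for FANCC, −0.42 for UBE2T, −0.39 for FANCI and −0.28 for USP1.

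Of these 20, BARD1, BRCA1, BRIP1, EXO1, FANCA, FANCI, MSH6, RAD54L, RMI1, UNG and XRCC2 kept the call under all 18 alternatives. PALB2 lost it without H226 DMSO replicate 2 (adjusted p = 0.0662), UBE2T without H226 SWTX-143 replicate 2 (0.0721), and RMI2 without H226 SWTX-143 replicate 2 (0.0569) or DMSO replicate 1 (0.0677). TOPBP1 lost it without H226 SWTX-143 replicate 3 or DMSO replicate 2 or 3 (0.077 to 0.169), and BLM without H226 SWTX-143 replicate 2 or 3 or DMSO replicate 2 or 3 (0.0651 to 0.109). RAD54B missed the limit without H226 SWTX-143 replicate 1 or 3, H226 DMSO replicate 1 or 2, ACHN SWTX-143 replicate 3 or ACHN DMSO replicate 1 (0.0577 to 0.316). USP1 missed it without H226 SWTX-143 replicate 3, any H226 DMSO library, or replicate 2 or 3 of either ACHN group (0.0561 to 0.245). FANCC missed it without any H226 library, ACHN SWTX-143 replicate 2 or 3, or ACHN DMSO replicate 1 or 3 (0.052 to 0.21). FANCB missed it without any H226 SWTX-143 library, H226 DMSO replicate 1 or 2, ACHN SWTX-143 replicate 1 or 2, or ACHN DMSO replicate 1 or 3 (0.0776 to 0.215). Without ACHN DMSO replicate 1 the difference was also called for CHEK1 (0.0455), FANCE (0.0472), NBN (0.0258) and RAD51D (0.0242), and without ACHN SWTX-143 replicate 1 for CHEK1 (0.039). The labels give no batch for these libraries, and groups of 3 were not screened for outlying libraries. The highest chi-square per degree of freedom between replicates, 3.42, was that of H226 SWTX-143 replicates 2 and 3. In that group replicates 1 and 3 gave 3.12, and replicates 1 and 2 gave 1.44. Without H226 SWTX-143 replicate 3, 26 members were called lower in H226 and 14 were called lower for the difference.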

How the results depend on the processing

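Over the single genes and alternatives, 2190 values kept their side of the limit (uncalled ones could differ in sign), 129 lost a call in the same direction, 19 gained one, and 2 were called with the opposite sign. Those 2 were the DMSO levels of FANCD2 and USP1 with library size alone, −0.14 each. In H226 1 member was called higher under RLE, upper-quartile and library-size scaling, without a filter and with the replicate block, and 0 to 1 on leaving out a library. In ACHN, DESeq2 called 2 members lower and 1 higher, and 638 of all genes higher; leaving out a library gave 3 to 4 lower and 1 to 4 higher. For the difference, DESeq2 called 856 of all genes lower, and leaving out a library gave 832 to 1411 lower over all genes and 13 to 21 members. For members lower in H226 leaving out a library gave 25 to 27. The cause of these changes was not tested.

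Deviations of same-numbered libraries had correlations of −0.057 to 0.17 in H226 and −0.17 to −0.059 in ACHN. With 3 libraries per group, such values cannot settle if the numbers pair the samples. With the replicate block, 30 members were lower and 1 higher in H226, 4 lower and 2 higher in ACHN, and 19 differed between lines. Depth limits the low RNAs most: FANCE had as few as 24 counts in a library.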
